A study of Arabidopsis thaliana with 12 samples.

Results

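PRK (AT1G32060) encodes phosphoribulokinase and SBPASE (AT3G55800) encodes sedoheptulose-bisphosphatase, both enzymes of the Calvin cycle in Arabidopsis thaliana. Each is the only gene annotated to 1 probe, and these 2 of the 3439 probes on the array were taken by gene name. The choice was made with earlier results of these data known. The array was hybridised with total RNA from 6 wild type samples (WT) and 6 samples of the pam48 mutant, all of ecotype Columbia 0. The labels describe pam48 as altered in photosynthesis and do not name the protein it lacks. They give neither an age, a tissue, a growth condition nor a treatment, and they do not say how many plants or mutant lines the samples came from. P-values below therefore rest on the variation among these samples alone, and that variation may be technical.

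The Calvin cycle builds sugar phosphates from CO2 in the chloroplast stroma, in a carboxylation phase, a reduction phase and a phase that regenerates the CO2 acceptor. PRK catalyses the closing step of regeneration, in which ribulose phosphate receives a phosphate from ATP and becomes ribulose bisphosphate, the substrate of Rubisco. SBPASE acts earlier in the same phase and removes a phosphate from sedoheptulose bisphosphate, a step that is not readily reversed and commits carbon to regeneration. Both enzymes are encoded in the nucleus, imported into the plastid and switched on in the light by thioredoxin, and PRK is held inactive in the dark in a complex with glyceraldehyde phosphate dehydrogenase and the small protein CP12.

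PRK intensity was lower in every pam48 sample than in every WT sample. On the deposited linear scale, on which the brightest spots of a sample stand at 100, PRK read 2.15 and 2.18 in WT samples 1 and 2, 3.21 and 3.24 in WT samples 3 and 4, and 1.87 and 1.84 in WT samples 5 and 6. In pam48 it read 0.623 and 0.686 in samples 1 and 2, 0.466 and 0.483 in samples 3 and 4, and 0.609 and 0.672 in samples 5 and 6. WT 3 and 4 were the brightest of the wild type and pam48 3 and 4 the dimmest of the mutant. The means were 2.41 ± 0.644 (SD, n = 6) in WT and 0.590 ± 0.0940 (SD, n = 6) in pam48. No overlap with pam48 lower was seen for 1.60% of all probes on this scale.

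SBPASE ran the other way on the deposited scale. It read 0.0647 and 0.0598 in WT samples 1 and 2, 0.121 and 0.138 in WT samples 3 and 4, and 0.167 and 0.186 in WT samples 5 and 6. In pam48 it read 0.288 and 0.219 in samples 1 and 2, 0.423 and 0.393 in samples 3 and 4, and 0.196 and 0.292 in samples 5 and 6. The groups did not overlap, although WT 6 and pam48 5 lay close together, and the means were 0.123 ± 0.0518 (SD, n = 6) in WT and 0.302 ± 0.0911 (SD, n = 6) in pam48. No overlap with pam48 higher was much more common, at 12.6% of all probes. The median probe of a sample moved with genotype as well: it read between 0.0913 and 0.192 over the WT samples and between 0.233 and 0.305 over the pam48 samples.

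**Figure D1:**
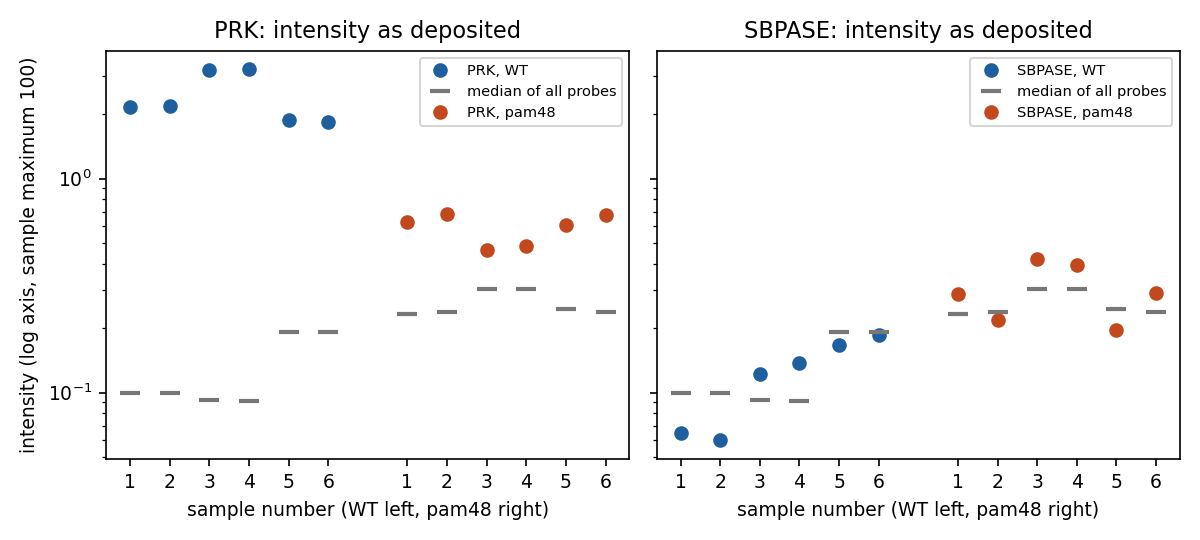
Deposited intensity (vertical log axis, sample maximum 100) of PRK on the left and SBPASE on the right in WT samples 1 to 6 and pam48 samples 1 to 6. Points are single samples and grey dashes the median of all 3439 probes in that sample. PRK stood far above the dashes in WT and came nearer to them in pam48, while SBPASE stayed near the dashes in both genotypes.

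Set against the median probe of its own sample, the level of SBPASE did not separate the genotypes. SBPASE stood at 0.600 to 1.51 times the sample median in the WT samples and at 0.797 to 1.38 times in pam48, with overlap (exact permutation test, two-sided, p = 0.396). PRK stood at 9.57 to 35.5 times the median in WT and at 1.53 to 2.90 times in pam48, without overlap. On this scale 8.17% of all probes were lower in pam48 without overlap. The PRK difference had the smallest p that 6 samples against 6 can give in the exact permutation test, 0.00216.

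Because sample medians differed, genotypes were compared after quantile normalisation, which gives every sample the same distribution of intensities, on a log2 scale. PRK averaged 1.30 ± 0.236 (SD, n = 6) in WT and -1.10 ± 0.463 (SD, n = 6) in pam48. Its log2 change was -2.40 ± 0.24 (SE), with a 95% interval from -2.92 to -1.88, that is 5.27-fold lower with a range of 3.67-fold to 7.57-fold (limma, adjusted p = 0.00022). The fit called 12% of all probes lower in pam48 and 4.91% higher, at an adjusted p under 0.05. PRK had the 7th lowest change of the 3439 probes and the 4th lowest of the 692 probes with 1 gene. In bulk RNA, fewer cells that express a gene and less of its RNA per cell cannot be told apart.

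SBPASE averaged -2.49 ± 0.400 (SD, n = 6) in WT and -2.19 ± 0.337 (SD, n = 6) in pam48 on the normalised log2 scale, with overlapping samples. Its log2 change was 0.30 ± 0.24 (SE), with a 95% interval from -0.22 to 0.83, and did not pass the test (limma, adjusted p = 0.41). The interval runs from 1.17-fold lower to 1.77-fold higher. On the values as deposited SBPASE passed, at 1.37 ± 0.34 (log2 change, SE; limma, adjusted p = 0.011), where the fit called 48.2% of all probes higher and the median change over all probes was 1.06. Relative to that median the change of SBPASE was 0.32 on the deposited scale and 0.44 after quantile normalisation, where the median probe changed by -0.13.

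The changes of the members were compared with each other within samples, on quantile normalised log2 values. The comparison cancels a factor that scales both spots of a normalised sample alike. It does not cancel unequal shifts of bright and dim spots by the normalisation. The log2 change of PRK was lower than that of SBPASE by a difference of -2.70 ± 0.32 (SE, 6 samples per genotype; exact permutation test, two-sided, p = 0.00216, the smallest this design allows). Taking samples of the same number together, the difference between the PRK change and the SBPASE change ran from -3.53 to -1.70 over the 6 numbers, and PRK was the lower in all 6. Over 19 alternatives of processing and sample choice the difference ran from -3.38 to -2.36. This shows that the probes changed unequally and does not show that SBPASE was constant.

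Brightness rank needs no normalisation between samples, and it measures a spot's place on its array, not the abundance of its transcript against that of another gene. In WT, PRK lay between percentiles 94.5 and 96.2 of all probes, at places 132 to 190 counted from the brightest spot. In pam48 it lay between percentiles 65.3 and 82.7, at places 596 to 1193. All 6 WT samples lay within a narrow band of percentiles, at 95.3 ± 0.733 (SD, n = 6), while pam48 was spread over 75.3 ± 7.55 (SD, n = 6), lowest in samples 3 and 4. These SDs do not compare the spread of PRK level, since the WT band covered deposited intensities from 1.84 to 3.24. On log2 deposited values the SD was larger in WT, at 0.369 against 0.240 in pam48. On the normalised log2 scale it was smaller in WT, at 0.236 against 0.463. The mean percentile of PRK fell by 20.0 points (exact permutation test, two-sided, p = 0.00216), without overlap, as did 3.98% of all probes.

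SBPASE lay in the middle of the array in both genotypes. Its percentile lay between 36.2 and 59.2 in WT, with a median of 46.9, and between 41.5 and 62.1 in pam48, with a median of 57.5. WT 3 and 4 overlapped the upper pam48 samples, and pam48 5 lay below WT 5 and 6. The means of 47.2 and 54.2 differed by 7.0 points, less than the SD of 9.33 within WT and 7.99 within pam48 (exact permutation test, two-sided, p = 0.188).

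**Figure D2:**
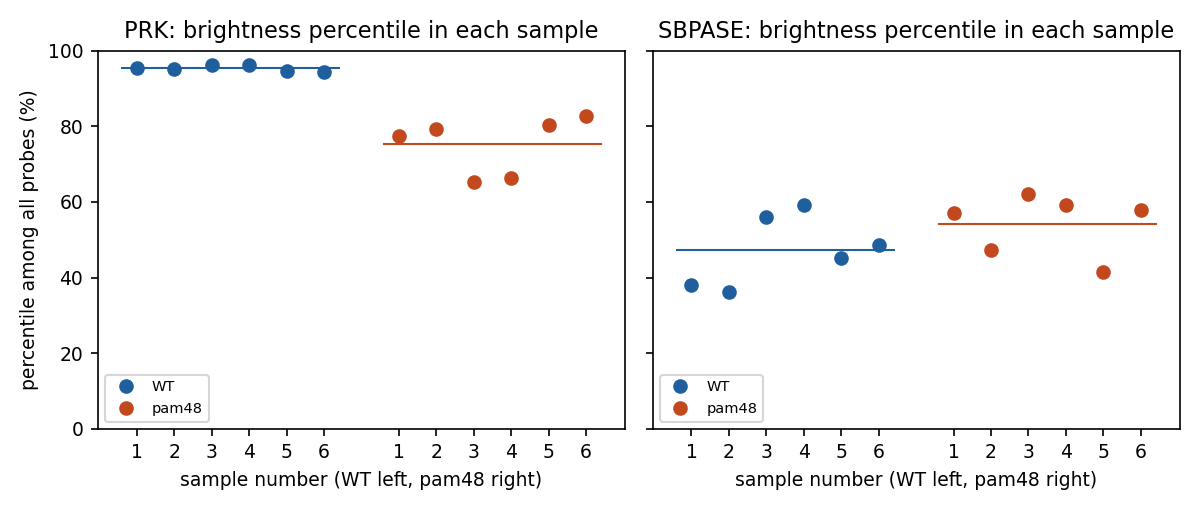
Percentile of PRK (left) and SBPASE (right) among the 3439 probes of each sample (vertical axis, percent), in WT samples 1 to 6 and pam48 samples 1 to 6. Points are single samples and lines the genotype means, 95.3 and 75.3 for PRK and 47.2 and 54.2 for SBPASE. The genotypes separate for PRK and overlap for SBPASE.

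Samples with consecutive numbers resembled each other, so the members were also read in couples (1 with 2, 3 with 4, 5 with 6). The log2 level of PRK differed by 0.017 to 0.070 within the WT couples, against a range of 0.521 between their means. In pam48 it differed by 0.047 to 0.184 within couples and by 0.977 between them. SBPASE was less regular: it differed by up to 0.142 within WT couples and by up to 0.687 within pam48 couples, where samples 5 and 6 stood apart by more than the range of 0.469 between couple means. With couples as a random block PRK still passed, with a 95% interval of the log2 change from -3.05 to -1.74 (limma, adjusted p = 0.0041), in a fit that called 0.145% of all probes lower. With couples averaged to 3 values per genotype PRK did not pass (log2 change -2.40 ± 0.42 SE; limma, adjusted p = 0.28, unadjusted p = 0.00029), in a fit that called 0 of 3439 probes (0%) and had 386 at an unadjusted p under 0.05. For a single gene the exact permutation test cannot go below 0.1 with 3 values against 3.

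The size of the PRK change varied between couples and its direction did not. One direction alone was not rare: 12.2% of all probes were lower in pam48 in all 6 numbers after normalisation, and 10.1% were higher. On the normalised scale the log2 change was -2.19 in numbers 1 and 2, -3.25 in numbers 3 and 4 and -1.75 in numbers 5 and 6. It was the 34th, 18th and 23rd lowest change of all probes in these couples. The change of SBPASE was 0.66 in numbers 1 and 2, 0.13 in numbers 3 and 4 and 0.12 in numbers 5 and 6, and over single numbers it ran from -0.16 in number 5 to 0.82 in number 1. On the deposited scale the SBPASE change was 2.01, 1.66 and 0.44 in the couples, while the sample medians differed by 1.22 to 1.25 in numbers 1 and 2, by 1.73 to 1.74 in numbers 3 and 4 and by 0.32 to 0.36 in numbers 5 and 6. The part of the sample medians in the deposited SBPASE difference was not tested beyond the values relative to the median given above.

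**Figure D3:**
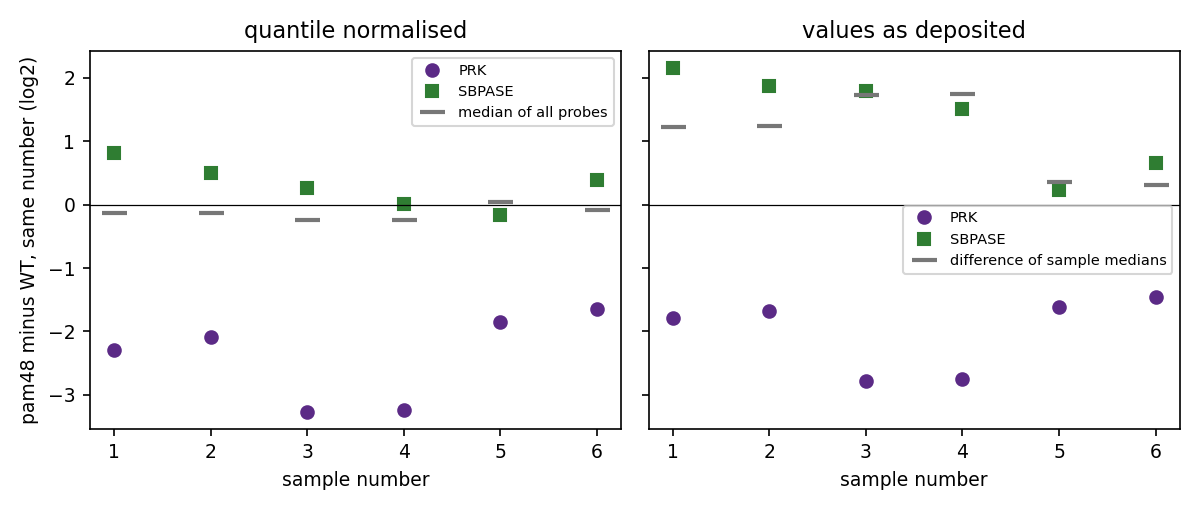
Log2 difference between the pam48 and the WT sample of the same number (vertical axis) for PRK (circles) and SBPASE (squares) against sample number, after quantile normalisation on the left and on the values as deposited on the right. Grey dashes are the median change over all probes (left) and the difference of the sample medians (right). PRK is below 0 for all 6 numbers on both scales, while SBPASE is above 0 for all 6 on the deposited scale and below 0 for number 5 after quantile normalisation. Of all probes 12.2% are below 0 for all 6 numbers after quantile normalisation. The difference of the sample medians is also above 0 for all 6 on the deposited scale.

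Few other genes of the pathway could be set beside them. Of 22 Calvin cycle enzyme genes listed, PRK and SBPASE were the only 2 with a probe of 1 gene. None of 5 carboxylation genes and none of 6 reduction genes had one, nor did any of 11 genes of photorespiration or 8 of carbon export, sucrose and starch. Of 12 listed regulators, which include CP12, the thioredoxins and their reductases, 2 had such a probe, NTRC and AT2G04700, a locus that carries no symbol in the gene table used here. Over these 4 probes, 0 were called higher, 2 lower and 2 were not called, with a median log2 change of -0.31 against -0.13 over all probes, of which the fit called 12% lower and 4.91% higher. On the values as deposited SBPASE and NTRC were called higher and PRK lower. That fit called 48.2% of all probes higher and 2.36% lower.

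NTRC (AT2G41680) is a plastid reductase that passes electrons from NADPH to target proteins through its own thioredoxin domain. Its intensity lay between 0.187 and 0.265 in WT, with a median of 0.215, and between 0.337 and 0.711 in pam48, with a median of 0.544. The groups did not overlap on this deposited scale, where 12.6% of all probes, SBPASE among them, were higher in pam48 without overlap. After quantile normalisation the NTRC groups overlapped, and the log2 change of NTRC was 0.39 ± 0.25 (SE; limma, adjusted p = 0.29), close in size to that of SBPASE. On the values as deposited NTRC passed, at 1.25 (log2 change; limma, adjusted p = 0.0055), in the fit that called 48.2% of all probes higher, and it did not pass there with couples as a random block (adjusted p = 0.080).

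AT2G04700 fell by 0.92 ± 0.28 on the log2 scale (SE; limma, adjusted p = 0.046). Its intensity lay between 0.817 and 1.46 in WT, with a median of 1.03, and between 0.618 and 1.06 in pam48, with a median of 0.748, and the groups overlapped. The log2 change was -0.91 in numbers 1 and 2, -1.82 in numbers 3 and 4 and -0.02 in numbers 5 and 6, whereas PRK was lower by more than 1.7 in each couple. The call of AT2G04700 was lost without any 1 of WT samples 1 to 5 or pam48 samples 1 to 4 (log2 changes -0.93 to -0.80, highest adjusted p = 0.096), with the replicate block (0.069, in a fit that called 7.36% of all probes lower), with the random block (0.26), with couples averaged (0.43), with cyclic loess (0.072) and on the values as deposited (log2 change -0.42, adjusted p = 0.14). With median centring its log2 change was -1.52 and passed (adjusted p = 0.0093).

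**Figure D4:**
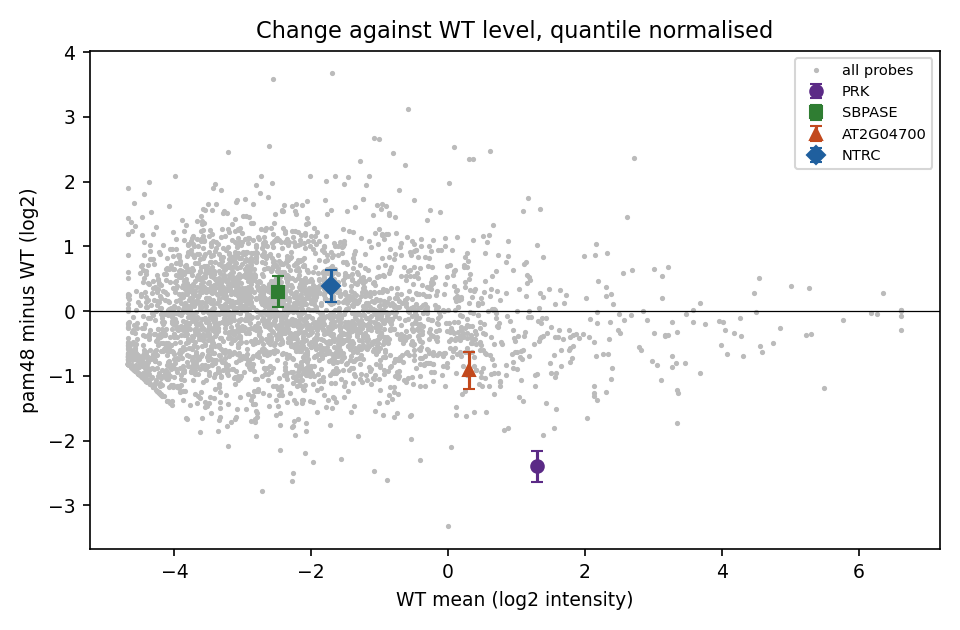
Log2 change, pam48 minus WT (vertical axis), against the WT mean log2 intensity (horizontal axis) for all 3439 probes after quantile normalisation, with PRK, SBPASE, AT2G04700 and NTRC marked. Bars are the SE of limma's fit. PRK lies at -2.40, the 7th lowest of all probes, AT2G04700 at -0.92, and SBPASE and NTRC at 0.30 and 0.39, inside the cloud.

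Genes of the light reactions and of the pentose phosphate pathway served as further context. Of 32 light-harvesting and photosystem genes, 4 had a probe of 1 gene. After quantile normalisation 0 were called higher, 1 lower and 3 were not called, beside 12% of all probes called lower. The called member was PSBY, a small photosystem II subunit, with a log2 change of -1.42 ± 0.40 (SE; limma, adjusted p = 0.037). The PSBY change was -2.20 in numbers 1 and 2, -1.94 in numbers 3 and 4 and only -0.14 in numbers 5 and 6. PSBY intensity as deposited lay between 2.35 and 2.75 in WT and between 0.673 and 2.71 in pam48, with overlap. The others were LHB1B2, a light-harvesting antenna protein of photosystem II (-0.70, adjusted p = 0.068), the photosystem I subunit PSAN (-0.14, 0.66) and the photosystem II subunit PSBW (0.39, 0.31).

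The count for the light reactions depended on the scaling. With median centring 3 of the 4 were called lower, PSBY (-2.23), LHB1B2 (-2.05, adjusted p = 0.0012) and PSAN (-1.27, adjusted p = 0.0044), in a fit that called 12.2% of all probes lower. These 3 also passed with 75th percentile centring, where 8.14% of all probes were called lower. On the values as deposited 2 passed, PSBY (-1.12) and LHB1B2 (-0.95, adjusted p = 0.0083), where 2.36% of all probes were called lower. LHB1B2 intensity there lay between 19.6 and 25.4 in WT and between 8.43 and 15.1 in pam48, without overlap. Of all probes 1.60% were lower in pam48 without overlap on this scale. With cyclic loess 0 of the 4 passed, in a fit that called 5.29% of all probes lower. With the random block 0 of the 4 passed as well (limma, adjusted p = 0.24 for PSBY and 0.39 for LHB1B2), where 0.145% of all probes were called lower. PSBY was not called when WT 1, 2, 3 or 4 or pam48 1, 2, 3 or 4 was dropped (adjusted p up to 0.089). The summed intensity of the 4 probes lay between 58.0 and 84.3 in WT and between 48.2 and 67.9 in pam48, and none was at the floor, the lowest level the processing allows, in any sample.

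Of 8 pentose phosphate genes 1 had a probe, AT1G12230, which was called lower (log2 change -0.87; limma, adjusted p = 0.046). It stood at its sample's floor in 5 of 6 samples of each genotype, and with 1 common floor for all samples its change was -0.043 (adjusted p = 0.74), so the call rests on floors that differ between samples. Its sign turned on the values as deposited (1.25) and with median centring (0.15), and it was not called with cyclic loess (adjusted p = 0.87), the random block (0.34) or couples averaged (0.43). It was not called when any 1 of WT samples 1 to 5 or pam48 samples 1 to 4 was dropped (adjusted p up to 0.10). None of 4 listed markers of non-green states and senescence had a probe of 1 gene, so other plant states could not be read from them.

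The transcripts that followed PRK most closely over the 12 samples were ranked by Pearson correlation of normalised log2 levels among 416 probes with 1 gene that were above the floor in every sample. They were AT4G31470 (r = 0.977), AT3G09080 (0.970), AT1G18060 (0.953), AT3G53580 (0.952) and AT1G21660 (0.948). All 5 were lower in pam48, which a choice by correlation with PRK over both genotypes largely fixes. Their log2 changes lay between -2.50 for AT3G53580 and -0.96 for AT4G31470 (limma, adjusted p = 0.00031 to 0.020). AT1G21660 was not called without pam48 3 (adjusted p = 0.052). On the values as deposited AT1G18060 was not called, at -0.26 (adjusted p = 0.29, -1.01 after quantile normalisation), and AT3G53580 gave -1.18. With median centring AT4G31470 gave -1.84 and AT1G21660 -1.86 (-0.99 after quantile normalisation). With the random block AT3G09080 alone of the 5 passed (limma, adjusted p = 0.019), in a fit that called 0.145% of all probes lower. With couples averaged none of the 5 passed, in a fit that called 0 of 3439 probes. The 12 samples include the difference between genotypes, so r is also given within each. Within WT alone r was 0.984 for AT4G31470, 0.949 for AT1G21660 and 0.802 for AT3G53580, but -0.877 for AT3G09080 and -0.966 for AT1G18060. Within pam48 alone it lay between 0.717 and 0.915 for the 5. Columns of a couple are close to repeats of each other, so these values rest on few independent points and are given as a description.

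For SBPASE the 5 closest were GLR2.7, a glutamate receptor-like channel (r = 0.893), AT5G11550 (0.815), AT5G19750 (0.757), AT2G36560 (0.663) and AT5G40050 (0.661). None of the 5 was called between the genotypes (limma, adjusted p = 0.16 to 0.74), beside 16.9% of all probes called in either direction. A choice by correlation over both genotypes with SBPASE, itself not called, makes such an outcome likely. GLR2.7 had r = 0.889 within WT and 0.915 within pam48, whereas AT5G40050 had 0.866 within WT and -0.063 within pam48. PRK and SBPASE themselves had r = 0.594 within WT and -0.600 within pam48, each over 6 samples that form 3 couples.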

How the data were processed

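The authors' deposited table gives 1 spot intensity per probe and sample on a linear scale with a maximum of 100. The labelling, the scanner, and any background correction or scaling behind it were not given in the sources used here. Genotypes came from sample titles. The members, gene lists and tests were chosen with earlier results of these data known. Intensities were quantile normalised, a floor was set in each sample at percentile 5 of its positive values, lower values were raised to it, and log2 was taken. PRK and SBPASE were above the floor in all 12 samples. The comparison of pam48 with WT used limma (version 3.58.1, R version 4.3.3; lmFit, eBayes, two-sided, Benjamini-Hochberg over 3439 probes, threshold 0.05). The procedure was run on simulated data with independent noise in every sample. That simulation leaves out the likeness of consecutive numbers, so it cannot give the error rate on these data. Percentiles used the deposited intensities. Single values were tested by exact permutation of the 12 samples.

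Same-numbered WT and pam48 samples deviated together (r across probes 0.188 to 0.418 in 6 pairs), and the replicate block was taken as a pairing. No r between samples of different numbers was set beside these, so pairing by number was not told apart from pairing by couple. What a number marks is not in the labels. Alternatives were other scalings, floors and variance models, couples of consecutive numbers averaged or as a random block, and samples left out. Of the 3439 probes, 692 had 1 gene in the platform annotation, 870 had several genes and stay unnamed, and 1877 had no entry. Related transcripts can hybridise to 1 spot. Coordinates and sequences are not used here. The number of samples limits the precision. Genes were named by rule: the members, every listed Calvin cycle gene with a probe of 1 gene, the called members of other lists (in a list with none called, the one with the smallest p), and the 5 probes of 1 gene most correlated with each member. LHB1B2, PSAN and PSBW fall outside this rule and were named after their values were seen, to complete their list.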

Additional observations from a re-analysis of the deposited data

How the results depend on the processing

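PRK was lower and passed in 27 of 29 alternatives, with log2 changes from -3.11 (median centring) to -1.96 (without numbers 3 and 4). Leaving out 1 sample gave -2.52 to -2.30 (limma, highest adjusted p = 0.00096). It did not pass with couples averaged (-2.40, adjusted p = 0.28), nor with a replicate block on the averages (-2.40, 0.089), which leave 3 values per genotype. SBPASE was higher in pam48 without passing in 28 of 29, from 0.12 without numbers 1 and 2, and passed on the values as deposited alone (1.37). It did not pass there once consecutive numbers were a random block (limma, adjusted p = 0.10), an alternative chosen after seeing the data. With couples averaged, the difference between the PRK and SBPASE changes (-2.70) and the PRK percentile change (-20.0 points) had an exact p = 0.1, the smallest possible there. With the replicate block, which pairs same-numbered samples, an exact sign-flip test gave p = 0.031 for each (-2.70 and -20.0), also the smallest possible, and limma gave PRK an adjusted p = 0.0051 and SBPASE 0.28. That block ended the calls of AT2G04700 and AT1G12230 (adjusted p = 0.069 and 0.073) and changed no other call among the genes named.

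The number of all probes called, 580, was 1739 on the values as deposited, 305 with cyclic loess, 377 with a common floor and 1248 with array weights. It was 8 with the random block, 10 with that block on the values as deposited, 0 with couples averaged (386 at an unadjusted p under 0.05 in limma's test) and 3 with a replicate block on the averages. It was 10 without numbers 1 and 2, 11 without 3 and 4, 1543 without 5 and 6, and 158 to 672 without 1 sample. Signs turned for PSAN (0.0073 with cyclic loess), for PSBW (-0.995 with median centring, -0.67 with 75th percentile centring) and for AT5G19750 (-0.24 with median centring). AT1G12230 gave 1.25 on the values as deposited, with or without the random block, 0.15 with median centring and 0.48 with 75th percentile centring. With a common floor AT1G12230 gave -0.043. For PSAN, PSBW and AT5G19750 the cause was not tested.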
